A study of Mus musculus with 2 samples.

Results

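The vascular endothelial growth factor (VEGF) family was followed through the cell classes of an aged mouse bladder. It comprised the ligands Vegfa, Vegfc, Vegfd and Pgf, the receptor kinases Kdr (VEGFR2), Flt1 (VEGFR1) and Flt4 (VEGFR3), and the co-receptors Nrp1 and Nrp2. These 9 genes were chosen by symbol, and each matched 1 of the 31054 features measured. VEGF-A is the main growth factor of blood vessels and signals through VEGFR2. VEGFR1 binds VEGF-A tightly but signals weakly, its secreted form acts as a decoy, and it is also the receptor of placental growth factor, the product of Pgf. VEGF-C and VEGF-D act mainly through VEGFR3, which drives lymphatic vessel growth, and the neuropilins are co-receptors that also bind class 3 semaphorins.

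The cells came from 1 male mouse aged 25 months with the genotype p16-CreERT2/R26-LSL-tdTomato, in which tamoxifen-activated Cre expressed from p16 switches on a lasting red reporter. Tamoxifen was given intraperitoneally on 5 consecutive days, and tissue was taken 2 weeks later. After exclusion of dead (DAPI+) and CD45+ (leukocyte) cells, sorting gave a reporter-negative library (Tom-) and a reporter-positive library (Tom+). Both groups therefore share the animal, the genotype and the tamoxifen, and Tom+ records p16 promoter activity at the time of Cre induction. Each group was 1 library, which leaves every difference without replicates and without a test. Ranges in parentheses after a value are 95% intervals for counting error only. Where values come in pairs, Tom- is given before Tom+.

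The Tom- library held 13551 barcodes with 197232860 unique molecular identifiers (UMIs) and the Tom+ library 2783 barcodes with 34455896 UMIs. Filters left 9886 and 1881 cells, with medians of 12773 and 11579 UMIs. The reporter transcript stood at 37.4 counts per 1000000 UMIs (CPM) in Tom- and 1214 CPM in Tom+. Ptprc, which encodes CD45, gave 7 and 0 UMIs. A total of 966 barcode sequences occurred in both libraries and labelled 657 Tom- and 346 Tom+ cells of those used. The submitters call the sorted cells stromal, but 1497 Tom- and 422 Tom+ cells were umbrella urothelial-like and 435 and 110 basal or intermediate urothelial-like. Classes were named from marker genes, and the VEGF genes and tdTomato took no part in the clustering.

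The promoters of the 3 receptor kinases are shown. These genes had their highest levels in endothelial-like cells in both libraries. So did Nrp1 and Nrp2 and, among classes of at least 50 cells, Vegfc, whose windows are not printed. RefSeq windows on build GRCm38.p6, from 250 bases before to 50 bases after a start site, were matched for all 9 genes. Capitals mark GGAAG or its reverse complement CTTCC, a core sequence of ETS factors, a family known to act on endothelial genes.
Kdr promoter, chr5:75978406-75978705, minus strand: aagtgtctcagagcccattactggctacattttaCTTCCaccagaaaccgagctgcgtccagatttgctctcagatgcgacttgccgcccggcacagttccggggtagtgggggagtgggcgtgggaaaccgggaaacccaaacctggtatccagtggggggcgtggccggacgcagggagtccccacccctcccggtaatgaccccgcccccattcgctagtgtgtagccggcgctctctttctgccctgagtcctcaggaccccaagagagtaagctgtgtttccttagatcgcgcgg
Flt1 promoter, chr5:147725962-147726261, minus strand: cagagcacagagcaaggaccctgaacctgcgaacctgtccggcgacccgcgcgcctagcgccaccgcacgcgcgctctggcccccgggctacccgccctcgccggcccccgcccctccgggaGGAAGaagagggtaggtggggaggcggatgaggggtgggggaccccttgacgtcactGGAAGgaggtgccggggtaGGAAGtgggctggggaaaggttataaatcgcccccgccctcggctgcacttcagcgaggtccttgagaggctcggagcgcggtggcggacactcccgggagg
Flt4 promoter, chr11:49609429-49609728, plus strand: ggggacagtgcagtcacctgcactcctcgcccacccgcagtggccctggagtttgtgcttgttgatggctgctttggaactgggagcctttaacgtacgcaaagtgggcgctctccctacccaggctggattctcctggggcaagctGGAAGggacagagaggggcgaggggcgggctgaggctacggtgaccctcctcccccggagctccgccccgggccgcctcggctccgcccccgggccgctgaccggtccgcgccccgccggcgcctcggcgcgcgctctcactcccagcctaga
The motif was searched on both strands, and 71.4% of 32851 windows of 300 bases held at least 1 copy. The Kdr window held 1 copy, beginning 216 bases before the start site. The Flt1 window held 3 copies, at 128, 71 and 52 bases, and the Flt4 window held 1 copy at 103 bases. Of the windows not printed, that of Nrp1 held 4 copies and those of Nrp2 and Vegfc 0 each. The GC box, GGGCGG or CCGCCC, was found in 35.7% of all windows, 2 times in the Kdr window and 3 times in each of the other two, and none of these copies overlapped a GGAAG match. A match is a description of the letters and does not show binding. On GRCm38 the protein-coding genes themselves span chr5:75932827-75978458, minus strand (Kdr), chr5:147561604-147726011, minus strand (Flt1) and chr11:49609263-49652739, plus strand (Flt4).

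Receptor kinases marked the vessels, and each vessel type held its own set. Flt1 was a gene of blood endothelial-like cells (689 Tom- and 175 Tom+ cells), Flt4 of lymphatic endothelial-like cells (196 and 89 cells), and Kdr of both. Flt1 stood at 1183 CPM (1153 to 1213) and 832 CPM (789.7 to 876) in blood endothelial-like cells. In lymphatic endothelial-like cells it stood at 5.82 CPM (2.34 to 12.0) and 11.1 CPM (3.61 to 26.0). The intervals of these classes lie far apart in each library, and blood endothelial-like cells held 87.6% and 87.3% of all Flt1 UMIs. A UMI of Flt1 was found in 94.0% and 94.9% of blood endothelial-like cells (median 6461 and 7708 UMIs per cell). The background share, taken from umbrella urothelial-like cells with medians of 38474 and 37717 UMIs, was 3.21% and 0.948%.

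Flt4 stood at 846 CPM (794 to 899) and 894 CPM (809 to 986) in lymphatic endothelial-like cells. In blood endothelial-like cells it stood at 53.9 CPM (47.8 to 60.7) and 38.7 CPM (30.0 to 49.2). The lymphatic class was thus highest in both libraries, and it held 68.3% and 77.0% of the Flt4 UMIs. An Flt4 UMI was found in 94.9% and 82.0% of its cells, at medians of 5841 and 4243 UMIs, and in 0.735% and 0.711% of the deeper umbrella urothelial-like cells.

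Kdr, the main signalling receptor of VEGF-A, was shared by both vessel types. It stood at 624 CPM (579.8 to 669.9) and 654 CPM (581 to 733) in lymphatic endothelial-like cells. In blood endothelial-like cells it stood at 593 CPM (572 to 615) and 363 CPM (335 to 392). The intervals of the classes overlapped in Tom- and did not in Tom+. Mesothelial-like cells came next at 72.0 and 53.3 CPM and fibroblast-like cells at 23.3 and 34.0 CPM, while umbrella urothelial-like cells had 0.8999 and 0.383 CPM. Mesothelial-like cells held 19.6% and 14.3% of the Kdr UMIs and fibroblast-like cells 18.7% and 18.1%, so a sizeable part of the transcripts lay outside the vessels.

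The neuropilins divided the vessels differently. Nrp1, a co-receptor of VEGF-A (chr8:128358604-128503363, plus strand), stood at 389 CPM (372 to 407) and 263 CPM (239 to 288) in blood endothelial-like cells. Lymphatic endothelial-like cells gave 3 UMIs of Nrp1 in Tom- and 0 in Tom+, where the 3 counts that a count of 0 allows correspond to 6.67 CPM. Nrp2, a co-receptor of VEGF-C (chr1:62703285-62818695, plus strand), stood at 422 CPM (386 to 459.9) and 336 CPM (284 to 394) in lymphatic endothelial-like cells. Its levels in blood endothelial-like cells were 245 CPM (231 to 259) and 325 CPM (299 to 353). The vessel types differed in Nrp2 beyond counting error in Tom- and overlapped in Tom+. Fibroblast-like cells had 87.9 and 71.6 CPM of Nrp1 and 166 and 163 CPM of Nrp2, and as the most numerous class they held 54.3% and 50.3% of the Nrp1 UMIs and 64.5% and 55.2% of the Nrp2 UMIs. Nrp1 overlaps the microRNA gene Mir1903 and Nrp2 overlaps Gm37121 on the same strand and Gm29083 on the other.

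Receptors were also counted together in single cells, each thinned to 2000 UMIs. Of 612 Tom- and 161 Tom+ blood endothelial-like cells deep enough, 53.3% and 47.2% held UMIs of both Kdr and Flt1, against 80.3% and 86.9% of all cells unthinned. Of 180 and 78 lymphatic endothelial-like cells, 57.2% and 51.3% held Kdr with Flt4, against 88.8% and 73.0% unthinned. Flt4 with Nrp2 was found in 41.7% and 38.5% of thinned lymphatic cells and in 3.76% and 3.11% of thinned blood endothelial-like cells. Kdr with Flt4 was found in 7.84% and 5.59% of thinned and 27.7% and 28% of unthinned blood endothelial-like cells. Kdr was thus often found with Flt1 in blood endothelial-like cells and with Flt4 in lymphatic ones. Whether these pairs met more often than their single shares imply was not tested.

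**Figure D1:**
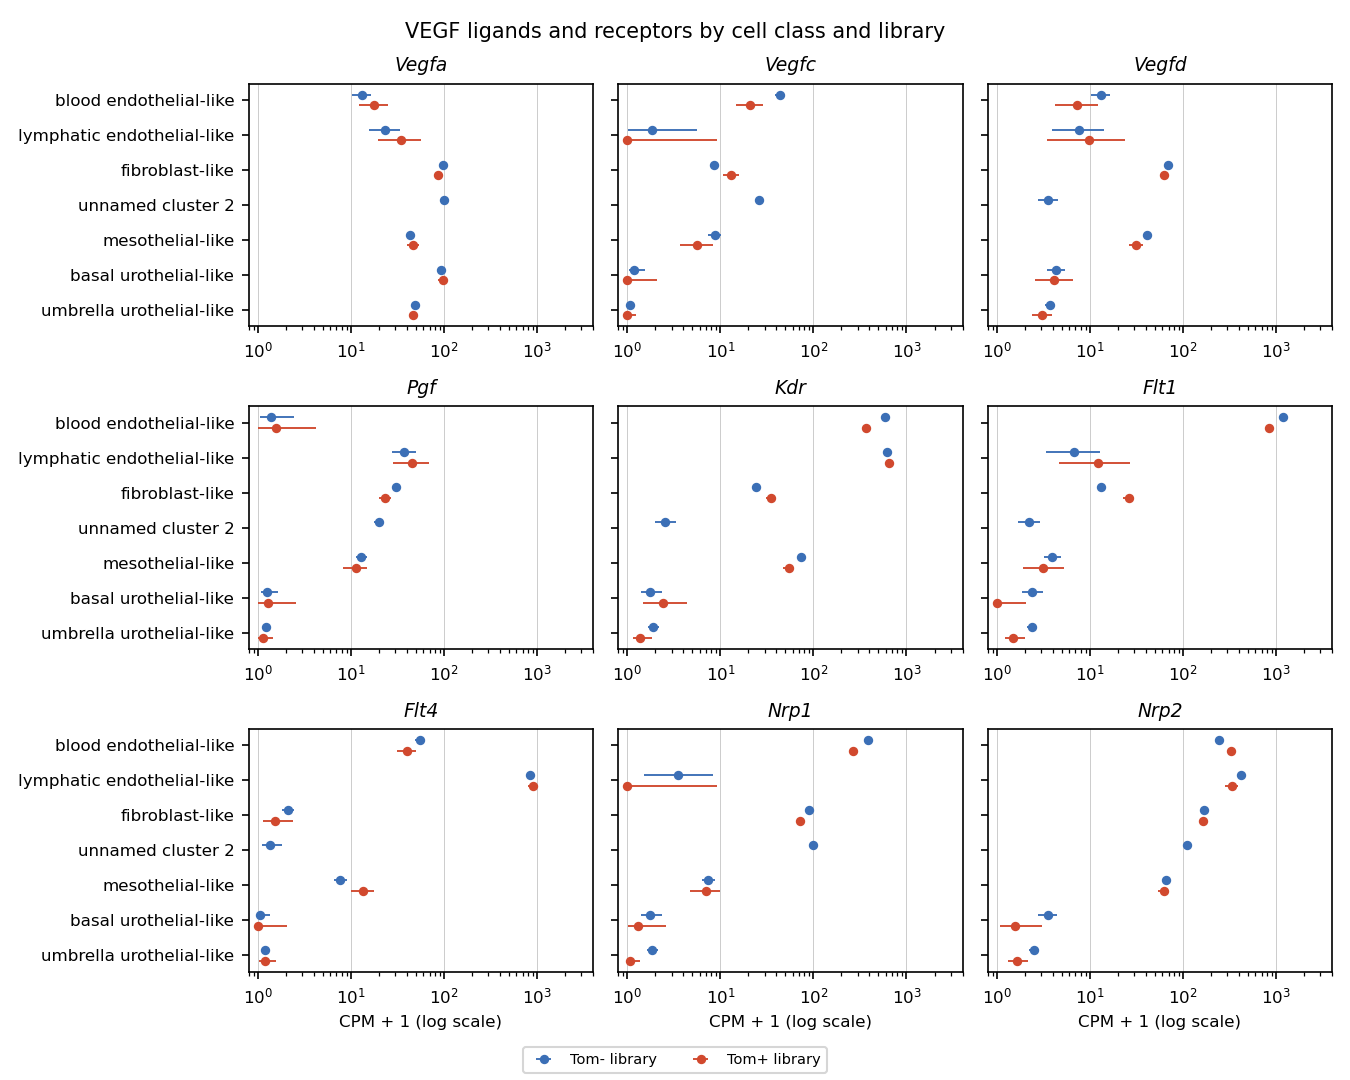
Level of each VEGF gene by cell class, in CPM with 1 CPM added on a log axis. Each point is the sum of a class in 1 library, Tom- or Tom+ as in the legend, with an exact 95% Poisson interval. Flt1 is highest in blood endothelial-like cells (1183 and 832 CPM) and Flt4 in lymphatic endothelial-like cells (846 and 894 CPM).

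Among the ligands, Vegfa (chr17:46016993-46032369, minus strand) was spread over stroma and epithelium. Fibroblast-like cells had 97.1 CPM (94.4 to 99.9) and 85.5 CPM (79.0 to 92.5). Basal or intermediate urothelial-like cells had 92.3 CPM (87.6 to 97.2) and 96.2 CPM (86.2 to 107). These neighbours did not differ beyond counting error in either library. Umbrella urothelial-like cells had 48.1 and 45.8 CPM, mesothelial-like cells 41.8 and 45.8 CPM, lymphatic endothelial-like cells 22.5 and 33.4 CPM and blood endothelial-like cells 12.2 and 16.8 CPM. The vessels, which hold the receptors, thus had the lowest Vegfa values of these classes, although the lymphatic and mesothelial intervals overlapped in Tom+. An unnamed stromal cluster led by Unc13c, Car3 and Actg2 (984 Tom- and 28 Tom+ cells) had 99.2 and 101 CPM. Another unnamed cluster had the highest sums, 169 and 205 CPM, but its 119 and 54 cells were shallow, with medians of 2901 and 1228 UMIs, and 101 and 54 of them carried barcodes found in both libraries. The splice forms of Vegfa are not told apart by counts from the 3′ end of transcripts.

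Vegfd (chrX:164373378-164402650, plus strand), a ligand of VEGFR3, was highest in fibroblast-like cells, followed by mesothelial-like cells. It stood at 68.7 CPM (66.4 to 71.0) and 61.4 CPM (55.9 to 67.3) in fibroblast-like cells, which held 77.1% and 72.2% of its UMIs. Mesothelial-like cells had 40.2 CPM (37.3 to 43.3) and 30.4 CPM (25.1 to 36.6), below fibroblast-like cells in both libraries. The 8 fibroblast markers summed to 21969 and 18905 CPM in mesothelial-like cells and to 35049 and 35056 CPM in fibroblast-like cells. The part of fibroblast RNA in the mesothelial Vegfd was not tested. Smooth muscle-like cells, 62 in Tom- and 1 in Tom+, had 29.1 CPM in Tom-, and blood endothelial-like cells 12.2 and 6.36 CPM.

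Pgf (chr12:85166635-85177790, minus strand), a ligand of VEGFR1, was scarce in blood endothelial-like cells, the class with the most Flt1. Lymphatic endothelial-like cells had 36.6 CPM (26.6 to 49.1) and 44.5 CPM (27.2 to 68.7), fibroblast-like cells 29.2 CPM (27.8 to 30.7) and 22.2 CPM (19.0 to 25.9), and Tom- smooth muscle-like cells 44.3 CPM. Blood endothelial-like cells gave 2 UMIs in Tom- and 1 in Tom+. The smooth muscle-like cells also had 33.2 CPM of Flt1 in Tom-, second to blood endothelial-like cells. The shallow unnamed cluster with the highest Vegfa sums had the highest Pgf sums too, 78.6 and 87.7 CPM, from 33 and 6 UMIs. Vegfc (chr8:54077606-54187096, plus strand), the main lymphatic growth factor, was highest in Tom- blood endothelial-like cells at 42.8 CPM (37.3 to 48.8), and at 19.6 CPM (13.6 to 27.5) in Tom+. The stromal cluster led by Unc13c and Car3 had 25.0 CPM (22.4 to 27.7) and, from 28 Tom+ cells, 24.6 CPM (10.6 to 48.4), the latter overlapping the Tom+ blood endothelial-like interval, and fibroblast-like cells had 7.62 and 11.9 CPM. Lymphatic endothelial-like cells, which had the most Flt4, gave 1 and 0 Vegfc UMIs.

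Blood endothelial-like cells were clustered again, and the VEGF genes followed the segments of the vascular tree. An unnamed sub-cluster led by Esm1, a proteoglycan gene known to be induced by VEGF, held 210 Tom- and 30 Tom+ cells, and a capillary-like one led by Lpl, Car4 and Cd36 held 120 and 7. Flt1 was at 2167 and 1994 CPM in the Esm1-led cells and 1662 and 1339 CPM in the capillary-like cells, against 549 and 549 CPM in the larger venous-like sub-cluster (102 and 45 cells). Kdr was at 1129 and 858 CPM, 878 and 476 CPM and 321 and 229 CPM in the same 3 sub-clusters. Nrp1 was at 653 and 687 CPM, 741 and 565 CPM and 185 and 160.2 CPM. All 3 genes were thus lower in venous-like cells than in Esm1-led or capillary-like cells in each library, beyond counting error except for Kdr against the 7 capillary-like cells of Tom+.

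Nrp2 ran the other way. It stood at 413 and 491 CPM in the larger and 326 and 452 CPM in the smaller venous-like sub-cluster (61 and 23 cells), and at 386 and 398 CPM in an unnamed one led by Cysltr1 and Aplnr (118 and 58 cells). It was 149 and 162 CPM in the Esm1-led cells and 21.7 CPM in the 72 Tom- arterial-like cells, the lowest of the 7 sub-clusters of Tom-. Arterial-like cells, of which Tom+ held only 2, had the most Vegfc. The Tom- arterial-like cells gave 135 Vegfc UMIs in 44 of 72 cells, 225 CPM (189 to 266), against 4.55 to 40.9 CPM in the sub-clusters numbered 0 to 4. Flt4 varied less, from 30.3 to 90.1 CPM over sub-clusters 0 to 5 of Tom-, with the Esm1-led cells on top.

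**Figure D2:**
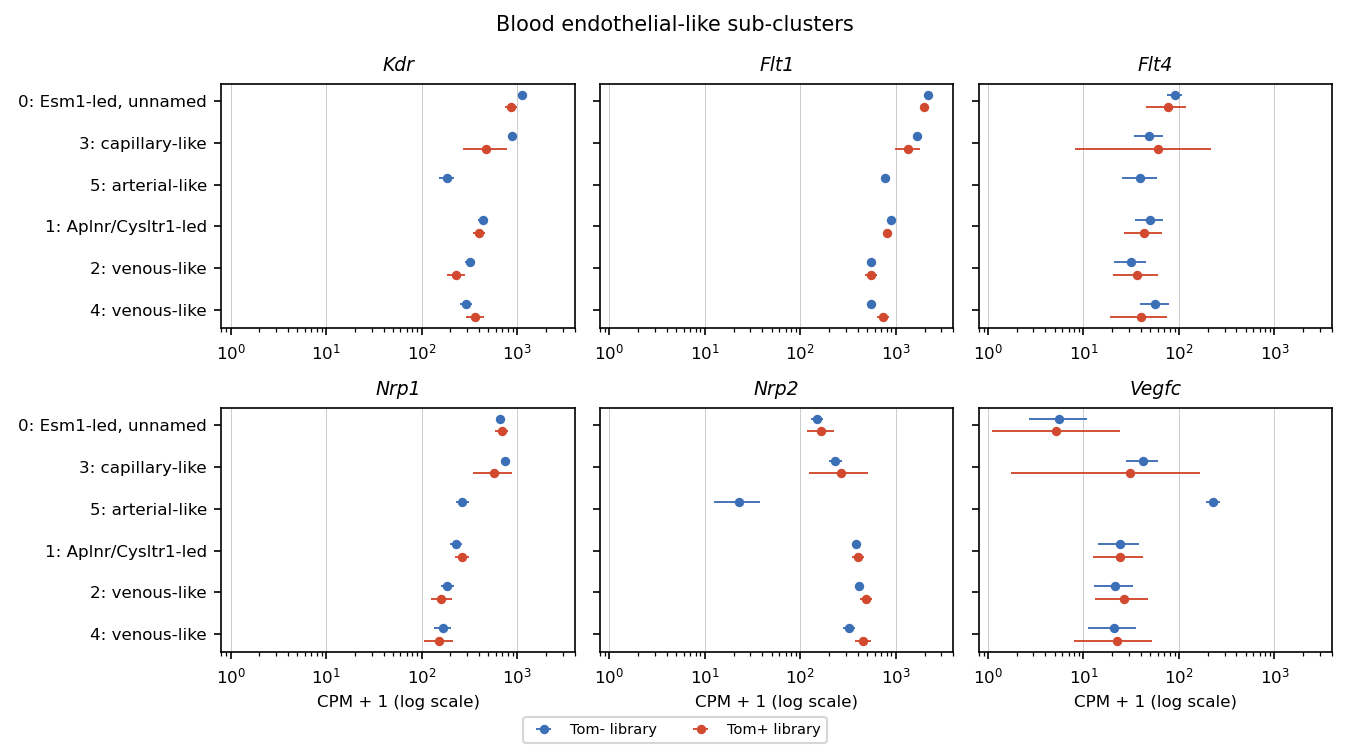
Levels of VEGF genes in blood endothelial-like sub-clusters, in CPM with 1 CPM added on a log axis. Points are sums of the cells of 1 sub-cluster in 1 library with exact 95% Poisson intervals. Flt1, Kdr and Nrp1 are high in the Esm1-led and capillary-like cells, Nrp2 in the venous-like cells and Vegfc in the arterial-like cells (225 CPM in Tom-).

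Tom+ and Tom- blood endothelial-like cells differed in several VEGF genes when the class was summed. Genes with at least 10 CPM in 1 library and 20 UMIs over both were counted as measured, and as different where CPM, with 1 CPM added, differed at least 1.5 times. Vegfc, with 218 and 34 UMIs, had a Tom+ to Tom- ratio of 0.459 (0.310 to 0.662). The ratio was 0.523 (0.248 to 1.001) for Vegfd, from 62 and 11 UMIs, and 0.612 (0.561 to 0.667) for Kdr. These were 3 of 8 measured VEGF genes, where 9.13% of 9045 measured genes were lower. None of the 8 was at least 1.5 times higher, where 3.5% were, and the median log2 ratio over all measured genes was -0.11. Just inside the fold lay Nrp1 at 0.675 (0.609 to 0.748), which passed it under 3 alternatives, and Flt1 at 0.704 (0.664 to 0.745), and Nrp2 was at 1.33 (1.20 to 1.47). Fewer cells of a segment and less RNA per cell cannot be told apart in such sums.

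The libraries held different endothelial cells. Esm1-led, capillary-like and arterial-like cells made up 30.5%, 17.4% and 10.4% of the Tom- class and 17.1%, 4% and 1.14% of the Tom+ class. Weighting the Tom- sub-clusters by their shares of Tom+ UMIs put Tom- Flt1 at 854 CPM, beside 832 CPM in Tom+. The same weighting put Vegfc at 20.6 CPM, beside 19.6 CPM, and Nrp1 at 253 CPM, beside 263 CPM. For these 3 genes the reweighted Tom- level came within the Tom+ interval. The weights cover all sub-clusters, among them the keratin-bearing one of the next paragraph, whose Tom- level comes from 6 cells. Kdr came to 435 CPM, above the Tom+ interval around 363 CPM. Vegfd, at 12.8 CPM beside 6.36 CPM (3.17 to 11.4), lay above its interval too, and Nrp2, at 289 CPM beside 325 CPM (299 to 353), below it. Within the Esm1-led cells the Kdr ratio was 0.759 (0.653 to 0.879), within the larger venous-like cells 0.714 (0.557 to 0.907), and within the cells led by Cysltr1 and Aplnr 0.903 (0.751 to 1.08). An equal-weight mean over these 3 sub-clusters, the ones with at least 30 cells in each library, gave log2 ratios of -0.34 for Kdr and 0.07 for Vegfc.

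Shared barcodes and a few deep cells touched these ratios. Without the shared barcodes the Kdr ratio was 0.688 (0.628 to 0.753) and the Vegfd ratio 0.650 (0.308 to 1.24), both inside the fold, and Vegfc remained lower at 0.481 (0.312 to 0.716). A keratin-bearing sub-cluster of 10 Tom+ and 6 Tom- cells held 324585 of 1730493 UMIs of the Tom+ class and 258598 of 5098155 of the Tom- class. Leaving it out moved the log2 ratio of Kdr from -0.71 to -0.56 and that of Nrp2 from 0.41 to 0.59, past the fold. Vegfa, at 1.38 (0.855 to 2.17), had 19 of its 29 Tom+ UMIs in these cells, and its ratio without shared barcodes was 0.709 (0.348 to 1.33). With predicted doublets kept, the log2 ratio of Kdr was -0.23. Markers of other cells also moved with the library: 6 basal urothelial markers summed to 254 CPM in Tom- and 597 CPM in Tom+, with 0 and 2 of them at 0. The 5 erythroid markers summed to 918 and 60.7 CPM, with none at 0, and the 8 fibroblast markers to 895 and 159 CPM, with 0 and 1 at 0. Their part in the ratios was not tested.

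**Figure D3:**
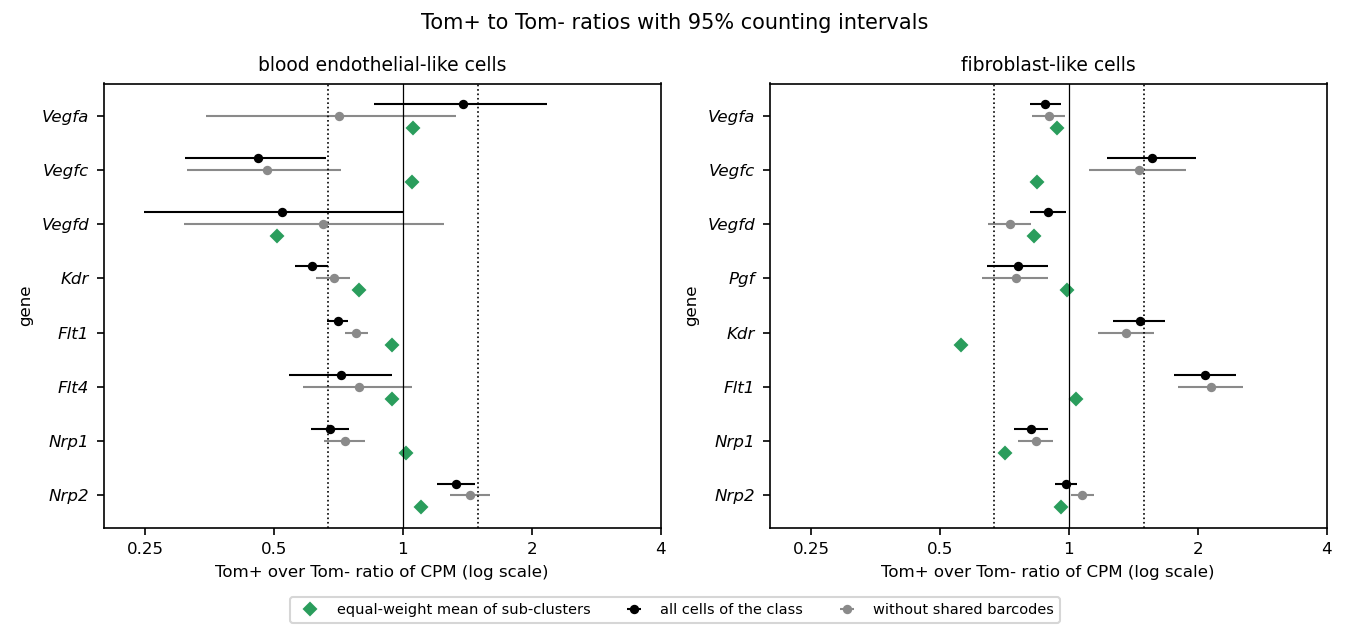
Tom+ to Tom- ratios of the VEGF genes measured in blood endothelial-like and fibroblast-like cells, on a log axis, for whole classes, without shared barcodes and as equal-weight means over sub-clusters (1 CPM added), with 95% conditional binomial intervals where given. In blood endothelial-like cells the whole-class Vegfc ratio is 0.459, and in fibroblast-like cells the whole-class Flt1 ratio is 2.08.

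In lymphatic endothelial-like cells, 0 of 5 measured VEGF genes passed the fold in either direction, where 8.26% of 8174 measured genes were higher and 11.9% lower in Tom+. The ratio was 1.05 (0.913 to 1.20) for Kdr, 1.06 (0.940 to 1.19) for Flt4 and 0.797 (0.660 to 0.957) for Nrp2. Pgf was at 1.22 (0.679 to 2.11) and Vegfa at 1.49 (0.735 to 2.89), the latter from 27 and 15 UMIs. Vegfa lay just inside the fold, stayed there in 7 of 11 alternatives and passed it as higher in the rest. For the receptors the intervals exclude a 1.5-fold difference upward, while those of the ligands do not.

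Fibroblast-like cells divided the family by state. Vegfd was highest in Dpp4+ cells, a state known from many organs as a reservoir of other fibroblasts, at 506 CPM (480.2 to 532) in 176 Tom- cells and 672 CPM (571 to 787) in 12 Tom+ cells. A Vegfd UMI was found in 169 and 12 of these cells, at medians of 17088 and 20390 UMIs, against 8.82% and 6.87% of the deeper umbrella urothelial-like cells. Of the 156 Tom+ UMIs, 93 lay in 5 cells with shared barcodes. The larger Gdf10+ state (416 and 102 cells) followed at 115 and 110.4 CPM, and the Cck+ state (978 and 43 cells) had 7.15 and 10.7 CPM. Vegfa stood at 148 and 124 CPM in adventitial cells (741 and 105 cells), 97.2 and 145 CPM in the Cck+ state and 53.0 and 52.6 CPM in the Cxcl12-rich state (830 and 288 cells). Pgf stood at 68.6 and 54.9 CPM in the Lsamp+ state (586 and 87 cells), where Nrp2 was 261 and 269 CPM, and Pgf at 2.87 and 6.79 CPM in the Gdf10+ state.

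Kdr and Flt1 were found in fibroblast-like cells too, with their highest levels in different states, while Flt4 was at 1.10 and 0.542 CPM. Kdr stood at 267 CPM (249 to 286) and 261 CPM (227 to 299) in an Angptl7+ state (166 and 56 cells). The state was named from Angptl7 and the antigen presentation genes Cd74 and H2-Aa. Its 10 leading genes included Cd74 and H2-Aa but not Angptl7. Trem2, Saa3 and Cxcl5 were also among them, and these genes lead mesothelial-like clusters as well. The other fibroblast-like sub-clusters had 0 to 42.2 CPM in Tom- and 0 to 30.6 CPM in Tom+. A Kdr UMI was found in 114 Tom- and 38 Tom+ cells of the state. Of these, 7 and 1 held a UMI of the endothelial junction genes Pecam1 or Cdh5, compared with 564 of 569 and 155 of 155 in blood endothelial-like cells. The 8 endothelial markers summed to 67.5 and 43.3 CPM in the state and to 6328 and 5200.2 CPM in blood endothelial-like cells. The 7 mesothelial markers summed to 528 and 511 CPM in the state, to 63.4 and 76.1 CPM in all fibroblast-like cells and to 3565 and 2789.8 CPM in mesothelial-like cells, and the part of mesothelial RNA in this Kdr was not tested. The Angptl7+ state also had the highest Vegfc of the 7 states plotted, at 27.3 and 38.2 CPM, but low co-receptors, with Nrp1 at 24.4 and 7.64 CPM and Nrp2 at 33.3 and 17.8 CPM.

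Flt1 was highest in the Gdf10+ state, at 66.9 CPM (60.7 to 73.6) and 108 CPM (89.9 to 128). A UMI was found in 139 and 35 of its cells, of which 13 and 0 held Pecam1 or Cdh5. The most Flt1-rich single cell gave 20 of 420 Tom- UMIs and 19 of 127 Tom+ UMIs, and 30 of 416 Tom- and 5 of 102 Tom+ cells held 50% of the UMIs. With 50% of its UMIs in 5 cells, the Tom+ sum of the state rests heavily on a few cells. The share of cells with a UMI was 33.4% and 34.3%, at unequal medians of 14470.5 and 9734 UMIs per cell. The secreted and membrane forms of Flt1 are not separated in these counts.

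**Figure D4:**
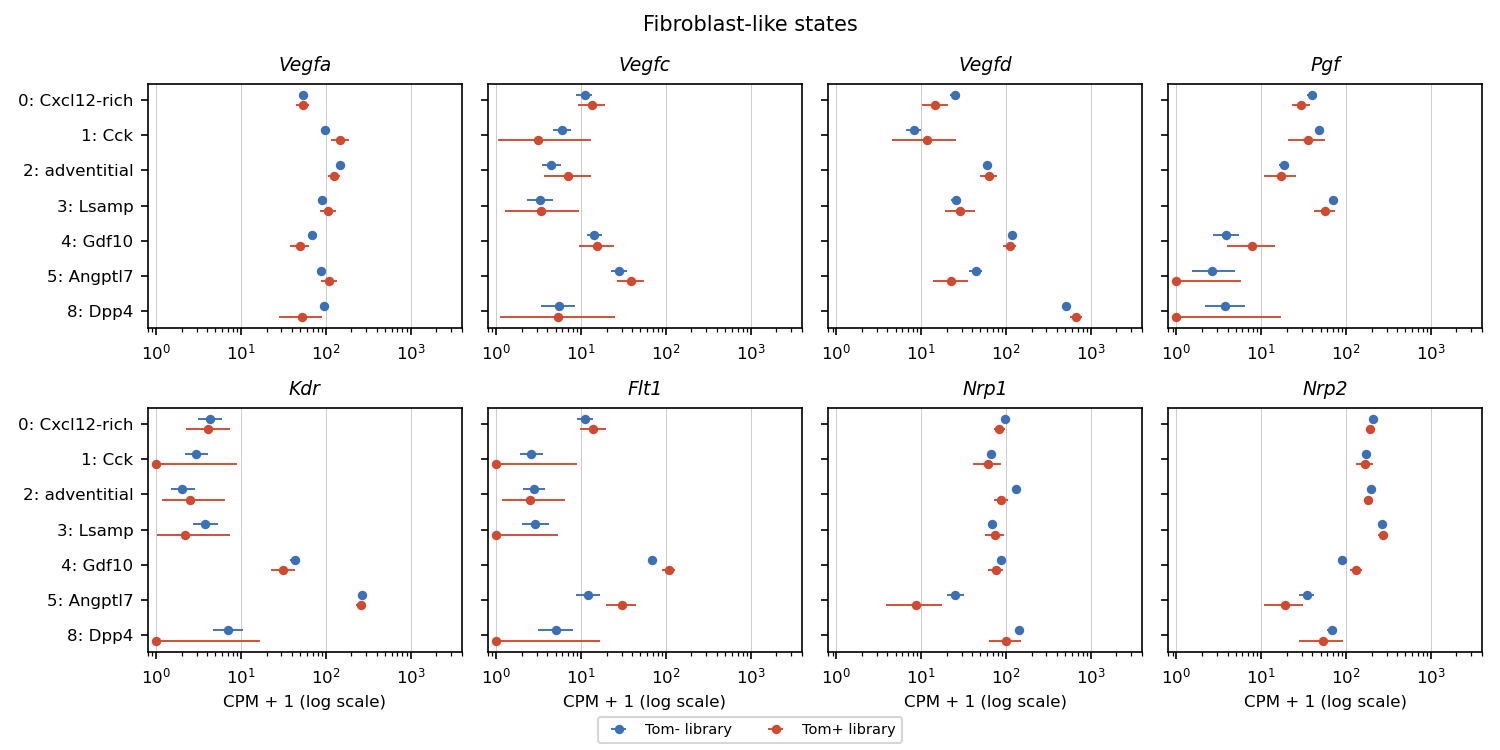
Levels of VEGF genes in fibroblast-like states, in CPM with 1 CPM added on a log axis, as sums of 1 state in 1 library with exact 95% Poisson intervals. Vegfd is highest in the Dpp4+ state (506 and 672 CPM), Kdr in the Angptl7+ state (267 and 261 CPM) and Flt1 in the Gdf10+ state (66.9 and 108 CPM).

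Summed over all fibroblast-like cells (4365 and 780), Flt1 stood at 12.1 CPM (11.2 to 13.1) and 25.2 CPM (21.7 to 29.1), which is a Tom+ to Tom- ratio of 2.08 (1.76 to 2.46). It was the 1 of 8 measured VEGF genes at least 1.5 times higher in Tom+, where 1.25% of 8968 measured genes were higher, and 0 of 8 were lower, where 1.24% were. Without shared barcodes the Flt1 ratio was 2.15 (1.80 to 2.55). Vegfc, at 1.57 (1.23 to 1.98) and a log2 ratio of 0.58 with 1 CPM added, and Kdr, at 1.46 (1.27 to 1.68), lay just inside the fold. Kdr passed it in some alternatives and turned to a log2 ratio of -0.84 as an equal-weight mean over sub-clusters, some of which had 0 Tom+ UMIs of Kdr. Vegfa, at 0.881 (0.810 to 0.957), Vegfd, at 0.894 (0.809 to 0.986), and Nrp2, at 0.986 (0.927 to 1.05), were nearer to 1. Pgf, at 0.761 (0.643 to 0.894), and Nrp1, at 0.814 (0.743 to 0.892), were the lowest of the 8. Without shared barcodes the Vegfd ratio was 0.727 (0.646 to 0.816).

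State composition differed here as well. The Gdf10+ state made up 9.53% and 13.1% of the class, the Angptl7+ state 3.80% and 7.18%, and the Cck+ state 22.4% and 5.51%. With Tom+ weights Tom- Flt1 came to 16.2 CPM, below the Tom+ interval, and Tom- Kdr to 37.3 CPM, beside 34.0 CPM in Tom+. Within the Gdf10+ state the Flt1 ratio was 1.61 (1.31 to 1.97), within the Angptl7+ state 2.62 (1.47 to 4.57) and within the Cxcl12-rich state 1.26 (0.793 to 1.97). The Angptl7+ ratio rests on few cells, since the Flt1 UMIs of this state came from 24 cells in Tom- and only 5 in Tom+. Flt1-positive cells made up 14.5% of the state in Tom- and 8.93% in Tom+, at medians of 18083.5 and 12625 UMIs per cell. Their share, not adjusted for this depth, ran opposite to the ratio. The equal-weight mean over sub-clusters gave a log2 ratio of 0.05 for Flt1, and it includes the Cck+ and Lsamp+ states, which had 0 Tom+ UMIs of Flt1. Within the Angptl7+ state Kdr had a ratio of 0.976 (0.833 to 1.14). The endothelial markers summed to 26.6 and 16.9 CPM in the class, and their part in the Flt1 ratio was not tested.

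Mesothelial-like cells, which line the outer surface of organs, formed 2 large clusters with different VEGF genes. Cluster 9, led by Myl7 and Prg4 (427 Tom- and 80 Tom+ cells), had Kdr at 113 CPM (105 to 120.4) and 106 CPM (88.3 to 126). Cluster 10, led by the acute-phase gene Saa3 and the chemokine gene Cxcl5 (355 and 80 cells), had Kdr at 36.9 CPM (33.0 to 41.1) and 28.4 CPM (21.5 to 36.9). Cluster 9 was thus higher in each library. Nrp2 stood at 93.3 and 119.7 CPM in cluster 9 and 40.6 and 36.0 CPM in cluster 10, and Pgf at 24.3 and 28.9 CPM and at 1.35 and 1.52 CPM. Flt4 and Vegfc ran the other way, with Flt4 at 1.77 and 2.55 CPM in cluster 9 and 11.4 and 20.3 CPM in cluster 10, and Vegfc at 1.13 and 1.70 CPM and at 13.6 and 5.58 CPM. In Tom+ cluster 10, 49 of the 80 cells carried shared barcodes, and Flt4 was 10.1 CPM, from 4 UMIs, without them. The Tom+ Vegfc intervals overlapped, at 0.206 to 6.13 CPM from 2 UMIs in cluster 9 and 2.79 to 9.98 CPM from 11 UMIs in cluster 10. Only 3 of these 11 UMIs lay in cells without shared barcodes. Of mesothelial-like cells with a Kdr UMI, 31 of 426 in Tom- and 4 of 71 in Tom+ held Pecam1 or Cdh5. Of the 79 and 30 mesothelial-like cells with an Flt4 UMI, 0 and 0 held the lymphatic regulator Prox1, 5 and 1 Ccl21a, 4 and 1 Mmrn1, 1 and 0 Lyve1, and 72 and 29 Pdpn, which mesothelium is also known to express.

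**Figure D5:**
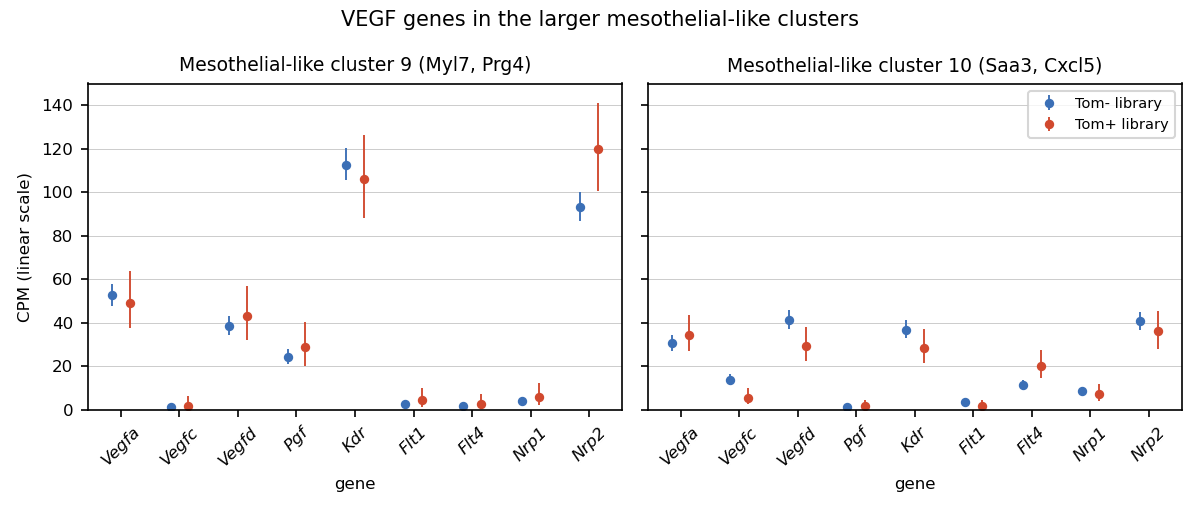
Levels of the VEGF genes in mesothelial-like clusters 9 and 10, as sums of 1 cluster in 1 library with exact 95% Poisson intervals, in CPM. Kdr, Nrp2 and Pgf are higher in cluster 9 and Flt4 in cluster 10 in both libraries, with Kdr at 113 and 106 CPM in cluster 9.

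Over the whole class (790 and 170 cells), Flt4 was the 1 of 6 measured VEGF genes at least 1.5 times higher in Tom+, where 2.24% of 8885 measured genes were higher, and 0 of 6 were lower, where 1.34% were. Its ratio was 1.84 (1.28 to 2.61), from 116 and 46 UMIs. Cells with shared barcodes held 39 of the 46 Tom+ UMIs, and without them the log2 ratio turned from 0.79 to -0.50, so no direction is read for Flt4. Kdr was at 0.740 (0.634 to 0.861) in the class, and at a log2 ratio of 0.21 without shared barcodes.

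In the urothelium, Vegfa was the 1 VEGF gene measured, and it did not pass the fold. In umbrella urothelial-like cells its ratio was 0.953 (0.876 to 1.04), where 0.0266% of 7519 measured genes were higher and 0.359% lower. In basal or intermediate urothelial-like cells it was 1.04 (0.923 to 1.17), where 0.249% of 8022 were higher and 0.885% lower. Both intervals exclude a 1.5-fold difference in either direction.

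Genes around the pathway were read against the same shares of all genes, which in blood endothelial-like cells were 9.13% lower and 3.5% higher. Of 16 measured genes known to be induced by VEGF in endothelium, 4 were at least 1.5 times lower and 1 higher in Tom+ blood endothelial-like cells, with a median log2 ratio of -0.07. Esm1 was lowest, at 199 and 49.1 CPM, and Dusp5, a phosphatase gene of the ERK pathway, highest, at 4.90 and 10.4 CPM. Of 9 measured Notch genes, which act with VEGF in choosing tip cells and arterial fate, 6 were lower and 1 higher, with a median of -0.77. Hey1, a Notch target of arteries, stood at 63.0 and 8.09 CPM and Hes1 at 213 and 326 CPM. In Tom- sub-clusters Hey1 was 148 CPM in arterial-like and 150.3 CPM in capillary-like cells, and within the Esm1-led cells it was 89.4 and 33.3 CPM, from 118 and 8 UMIs. Hey1 is among the markers used to name the arterial-like cells, so its level there was partly set by the naming. The part of segment composition in the Notch counts, and in Esm1, which leads a sub-cluster, was not tested. In mesothelial-like cells, where 2.24% of all genes were higher, 3 of 3 measured Notch genes were higher in Tom+. Hes1 stood at 26.5 and 89.4 CPM, Notch1 at 5.04 and 16.7 CPM and Jag2 at 5.16 and 11.04 CPM. The parts of the shared barcodes and of cluster make-up in this were not tested.

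The remaining lists were counted in the same class. Of 21 measured hypoxia-response genes, 3 were lower and 0 higher, with a median of -0.09 and extremes at P4ha2, a collagen prolyl hydroxylase gene (-1.87), and Ddit4 (0.25). Of 3 measured class 3 semaphorins, the other ligands of neuropilins, 2 were lower and 0 higher, with a median of -0.81 and Sema3g at 92.6 and 7.51 CPM. Sema3g is also among the markers used to name arterial-like cells, and the part of segment composition in these lists was not tested. Of 3 measured angiopoietin and Tie genes, 0 passed the fold, with a median of -0.23, and Tek, the angiopoietin receptor gene, was at 233 and 198 CPM. Of 5 measured genes for the further ligand and ligand processing, with a median of 0.15, the VEGFR1 ligand Vegfb was higher, at 29.2 and 45.7 CPM, and the convertase gene Pcsk5 lower, at 18.2 and 8.09 CPM. Of 11 receptor partners and phosphatases, 2 were lower and 0 higher, with a median of -0.25 and the integrin gene Itgav lowest at -0.89.

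In fibroblast-like cells, where the median of all measured genes was 0.00, 1 of 19 measured hypoxia-response genes was higher and 0 lower, with a median of 0.06 and the glycolytic regulator Pfkfb3 at 7.21 and 12.5 CPM. Of 9 receptor partners and phosphatases, 1 was higher, Plxna4 at 15.2 and 24.1 CPM, and 2 lower, with a median of -0.06. The lowest of these, the phosphatase gene Ptprb, stood at 15.1 and 2.85 CPM, and it leads a shallow sub-cluster in which 98 of 173 Tom- and 27 of 27 Tom+ cells carried shared barcodes. Of 5 semaphorins, 1 was lower, Sema3e at 14.5 and 8.27 CPM, with a median of -0.02. Sema3e is among the markers used to name the Dpp4+ state, which made up 4.03% and 1.54% of the class. The part of state composition in this was not tested. None of 6 ligand and processing genes, 4 angiopoietin and Tie genes, 6 VEGF-induced genes or 2 Notch genes passed the fold. Ccbe1, whose product VEGF-C needs for its maturation, stood at 14.0 and 19.4 CPM.

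The genes most like each VEGF gene were listed by Pearson correlation of log2(CPM + 1) over 19 sums of a class in a library, among 6368 genes, as a description of sums that share libraries and depths. For the receptors these were Cavin2 (0.94) for Kdr, Myrip (0.95) for Flt1, Klhl4 (0.94) for Flt4, Col15a1 (0.93) for Nrp1 and Mgll (0.98) for Nrp2. For the ligands they were Cyp27a1 (0.85) for Vegfa, Slit3 (0.87) for Vegfd and Khdrbs3 (0.95) for Pgf. Vegfc was not ranked because no class sum reached 50 CPM.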

How the data were processed

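Droplet-based 3′ single-cell libraries of 2 sorted fractions from 1 animal were deposited as raw UMI counts per gene and barcode; per the submitters' processing notes the authors used Cell Ranger 7.0.0 and mm10, while the deposited matrices' headers name software version 3.0.2. Cells with at least 1000 UMIs, 500 genes and under 15% mitochondrial UMIs were kept, and predicted doublets (Scrublet method, rate 0.8% per 1000 cells; 709 Tom- and 12 Tom+) were removed. Scanpy 1.11.5, leidenalg 0.10.2 and igraph 0.11.9 with numpy 2.4.6, scipy 1.17.1, scikit-learn 1.9.0 and Python 3.11.15 gave 27 clusters (2000 variable genes, 30 components, 15 neighbours, resolution 1; sub-clusters at 0.5), without the 9 genes and tdTomato. A cluster was named where the leading marker list scored at least 0.5 and at least 3 of its markers were found in 25% of cells or more. No other list could have more markers among the cluster's 10 leading genes, and a shallow cluster needed a marker of its own among them. Sub-clusters also needed a mean marker log2 fold over 0.5 within their class and fewer than 2 leading genes marking another class. The cluster led by Unc13c and Car3 stayed unnamed although its fibroblast score was 0.785.

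UMIs were summed per class and library, scaled to CPM and given exact Poisson intervals; shares have exact Clopper-Pearson intervals and ratios exact conditional binomial intervals. UMIs have had amplification copies removed, so each counts as 1 molecule. Ratios were taken for 6 classes that reached 50 cells in both libraries; the ratio code was tested on simulated counts. Named genes were the 9 genes, the 3 most correlated genes (the first of which is printed), the highest and lowest gene of each list and pathway genes; leading and marker genes are named where a class or state is described, and the Notch genes of mesothelial-like cells were named after their values were seen. The genes and lists were chosen with earlier results of these data known. Gene positions are from GENCODE on GRCm38, whose start sites can differ from RefSeq's. No Tom+ to Tom- test was run because each group is 1 library. Alternatives changed the cell filter, doublets, clustering, class assignment, shared barcodes, weighting, scaling, depth, free RNA, composition, pseudocount and low-value filter; those on the Unc13c and Car3 clusters counted as fibroblast-like and on the keratin-bearing sub-cluster were chosen after seeing the data.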

Additional observations from a re-analysis of the deposited data

How the results depend on the processing

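No paired analysis was possible because each group is 1 library. In blood endothelial-like cells, the count of VEGF genes at least 1.5 times higher in Tom+ went from 0 to 1 with doublets kept, with cells gated by their own markers, with 5% free RNA removed and without the keratin-bearing sub-cluster, and the count lower went from 3 to 1 without shared barcodes, as a mean of sub-clusters and with a filter of 50 CPM, which leaves fewer genes measured. In fibroblast-like cells, the count higher went from 1 to 2 with a stricter cell filter, own-marker gating, equal weight per cell, thinning to 2000 UMIs, 5% free RNA removed, and the clusters led by Car3, Dkk2 or Tnc either left out or all counted as fibroblast-like, and to 0 as a mean of sub-clusters and with a filter of 50 CPM. The count lower went from 0 to 1 with thinning and as a mean of sub-clusters. Among genes past the fold, the log2 ratio turned for Vegfc in blood endothelial-like cells as a mean of sub-clusters (0.074). That mean leaves out the arterial-like cells, too few in Tom+, which gave 135 of the 218 Tom- Vegfc UMIs of the class. For Flt4 in mesothelial-like cells it turned without shared barcodes (-0.50) and when thinned (-0.998). Of 24 ratios inside the fold, 15 changed sign under at least 1 alternative, among them Kdr in fibroblast-like cells (-0.84 as a mean of sub-clusters), Nrp1 (0.03 as a mean of sub-clusters) and Flt4 (0.10 with doublets kept) in blood endothelial-like cells, and Kdr (0.21) and Pgf (0.42) in mesothelial-like cells without shared barcodes. Calls were gained as lower in blood endothelial-like cells for Nrp1 with a stricter cell filter (-0.61), equal weight per cell (-0.64) and thinning (-0.65). There Flt4 was gained as lower with thinning (-0.74). Vegfa was gained as higher in lymphatic endothelial-like cells with a stricter cell filter, equal weight per cell and 5% free RNA removed. It was also gained there with thinning (3.16). Flt1 in fibroblast-like cells passed the fold in 13 of 14 alternatives, from 0.05 to 1.23, and Kdr in blood endothelial-like cells in 9 of 14, from -0.77 to -0.23. Beyond the composition, shared-barcode and low-value alternatives, whose construction is given, the cause of these changes was not tested. Low UMI numbers limit Vegfd and Vegfa in blood and Vegfa and Pgf in lymphatic endothelial-like cells.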

Other observations

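Further ligands of the neuropilins and of Tie receptors had class patterns of their own. In lymphatic endothelial-like cells, which had Nrp2 and almost no Nrp1, Sema3d stood at 332 and 300.3 CPM and Sema3a at 133 and 125 CPM in Tom- and Tom+. Angpt2, an angiopoietin gene, stood there at 184 and 80.1 CPM, a ratio of 0.436 (0.297 to 0.622). Sema3c was found in fibroblast-like cells at 372 and 321 CPM and in mesothelial-like cells at 209 and 177 CPM. Vegfb, a ligand of VEGFR1, stood at 129 and 129.5 CPM in basal or intermediate and 111 and 107 CPM in umbrella urothelial-like cells, and Ccbe1 at 37.1 and 28.5 CPM in mesothelial-like cells. Sema3c, Sema3d and Sema3a outside the rule for named genes were chosen after their values were seen.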
